A study of Mus musculus with 6 samples.

Results

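Genes of the major histocompatibility complex (MHC) and of antigen processing were followed in ventricular RNA of mice after repeated fast pacing. They were taken as every row of the per-mouse table whose gene name starts with H2-, the mouse name of this complex, together with 11 named genes: B2m, Cd74, Ciita, Nlrc5, Tap1, Tap2, Tapbp, Psmb8, Psmb9, Psmb10 and Erap1. This gave 51 of 24239 rows, of which 40 carry an H2- name. By role, 29 are class I heavy chain genes, 11 are class II genes with Cd74 counted among them, and 10 are the class I light chain, peptide supply and regulator genes. The last one, H2-Ke6, is a steroid dehydrogenase gene that lies in the same region, and it was counted in neither class.

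The pacing group holds 3 mice and the sham group 3 mice, all male C57BL/6 aged 8 to 10 weeks, with no transgene or deletion in either group. Paced mice had a bipolar catheter in the esophagus, behind the atria, and were paced in daily sessions of 45 min at 80 ms between beats, each begun and ended by 3 min at 120 ms. There were 5 daily sessions, a pause of 2 days and 3 further sessions, 8 in all. The design lists 8 intervention days for the sham mice as well, and what the sham procedure held is not stated here. Messenger RNA of whole ventricle was sequenced as stranded paired reads, and each mouse has 1 FPKM value for each gene, that is fragments per kilobase of transcript scaled to library size. FPKM is a value per length, so levels of different genes can be set side by side. In whole tissue, fewer cells of a type and less RNA per cell cannot be told apart.

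Class I molecules present peptides made inside the cell to CD8+ T cells and natural killer cells, and almost every nucleated cell carries them. Class II molecules present peptides from engulfed protein to CD4+ T cells, and in the heart they are known mainly from resident macrophages and dendritic cells. Interferon gamma raises both arms, through the transactivators Nlrc5 for class I and Ciita for class II, which act at a conserved row of promoter boxes.

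Libraries differed in tissue makeup. The effective depth, read from the steps of the lowest values, was 7672000 to 8810000 fragments in paced and 6210000 to 7814000 in sham mice, so that FPKM 1 on a transcript of 1 effective kilobase stands for 6.21 to 8.81 fragments. Summed FPKM of 6 ventricular cardiomyocyte markers was 59394 to 61886 in paced and 62648 to 82281 in sham mice, with every marker present. These sums did not overlap, with the paced mice lower, and 2 of the 6 markers did not overlap singly, also with pacing lower (background: 6.97%). Summed lung markers (7 genes) stood at 2.44, 313 and 1718 in pacing 1, 2 and 3, against 4.96, 0.462 and 1.32 in sham 1, 2 and 3. Atrial muscle markers (4 genes) summed to 2443, 7361 and 5039 in pacing 1, 2 and 3, against 5355, 70.8 and 2017 in sham 1, 2 and 3. Fat markers (4 genes) stood at 131, 69.4 and 54.1 in the paced mice, against 48.5, 4.31 and 3.07 in the sham mice. Lung RNA was thus high in pacing 2 and pacing 3 alone, and sham 2 had the least atrial RNA. The medians of the MHC genes, and the genes that shifted most, are given below with and without these mice.

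No gene of the set passed the adjusted threshold between paced and sham ventricles. Of the 51 genes, 30 had a mean FPKM of at least 1 and were tested with limma among 11994 genes on log2(FPKM + 1), the scale of all fold changes here, which understates the change of low genes. At an adjusted p under 0.05, 0 of the 30 were called (background: 0% of tested genes higher, 0% lower), and the lowest adjusted p among them was 0.306. At an unadjusted p under 0.05, 4 were higher in paced mice, which is 13.3% (background: 5.17%), and 0 were lower (background: 3.69%). The split over all genes, 620 higher and 442 lower, depends on scaling, with 968 higher and 148 lower on equal FPKM sums, 514 higher and 609 lower on equal medians and 537 higher and 581 lower on quantiles. The 4 genes of the set are the class I genes H2-Q10, H2-Q9, H2-T9 and H2-T23, and these were also the ones whose lowest paced mouse lay above the highest sham mouse (background: 6.24% higher, 6.97% lower). Positive log2 fold changes stood in 24 of 30 genes, or 80.0% (background: 48.2%). The median was 0.23 for 13 class I genes, 0.30 for 7 class II genes and 0.04 for 9 light chain, peptide supply and regulator genes, against -0.01 for all tested genes.

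The remaining 21 genes lay under the filter and were not tested. Of these, 10 were listed at 0.01, the lowest value written, in all 6 mice: H2-Bl, H2-Ea-ps, H2-M1, H2-M10.1 to H2-M10.6 and H2-M11. A further 7, namely H2-Eb2, H2-T3, H2-M2, H2-M5, H2-M9, H2-Q1 and H2-Q2, were above 0.01 in 1 or 2 mice, at up to 0.412. The other 4 were above 0.01 in every mouse and are the class I gene H2-T10, the class II genes H2-Oa and H2-Ob, and Ciita. The H2-M10 genes are known in the mouse from sensory neurons of the vomeronasal organ.

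Promoters of the genes were compared because Ciita and Nlrc5 work through shared boxes close to the start of transcription. The RefSeq table of build GRCm38.p6 held a promoter for 35 of the 51 genes, each with 250 bases before and 50 after the start. Among the genes without one were H2-Ab1, Cd74, Tap2 and both regulators, Ciita and Nlrc5. A pair of boxes was searched on both strands: TGANG, which covers the core of the X2 box, then 15 to 25 bases, then ATTGG, the Y box, which is also an inverted CCAAT box. The pair stood in 918 of 32851 promoters, or 2.79%. It stood in 6 of 8 class II promoters (75.0%), 4 of 19 class I promoters (21.1%) and 1 of 7 of the light chain and peptide supply promoters (14.3%), that of B2m. ATTGG alone stood in 37.4% of all promoters, in 16 of 19 class I and in 7 of 8 class II promoters. The 120 bases before the start are printed 5′ to 3′ on the strand of the gene for 3 class II genes and for the class I genes of the highest level and their light chain, with both boxes in capitals. H2-Aa lies at chr17:34287824-34287943 (minus strand), H2-Eb1 at chr17:34305747-34305866, H2-DMb1 at chr17:34153071-34153190, H2-K1 at chr17:34000348-34000467 (minus strand), H2-D1 at chr17:35262974-35263093 and B2m at chr2:122147567-122147686. H2-Q10, the gene with the largest fold change below, lies at chr17:35469969-35470088 and has no such pair in its window, so it stands in lower case.
H2-Aa: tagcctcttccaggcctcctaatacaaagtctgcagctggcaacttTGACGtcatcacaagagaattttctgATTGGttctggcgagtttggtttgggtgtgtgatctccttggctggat
H2-Eb1: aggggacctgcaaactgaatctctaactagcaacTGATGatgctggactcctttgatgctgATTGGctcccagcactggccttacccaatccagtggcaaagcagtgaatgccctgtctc
H2-DMb1: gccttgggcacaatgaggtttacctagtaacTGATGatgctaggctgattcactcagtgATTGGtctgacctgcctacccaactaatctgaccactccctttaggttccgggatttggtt
H2-K1: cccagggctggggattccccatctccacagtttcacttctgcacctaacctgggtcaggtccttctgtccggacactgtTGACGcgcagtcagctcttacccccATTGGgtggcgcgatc
H2-D1: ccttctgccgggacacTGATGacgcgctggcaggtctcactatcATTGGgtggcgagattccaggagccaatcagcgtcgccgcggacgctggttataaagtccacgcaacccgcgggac
B2m: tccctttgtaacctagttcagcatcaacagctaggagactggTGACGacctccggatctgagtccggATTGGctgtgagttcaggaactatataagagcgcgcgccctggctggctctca
H2-Q10: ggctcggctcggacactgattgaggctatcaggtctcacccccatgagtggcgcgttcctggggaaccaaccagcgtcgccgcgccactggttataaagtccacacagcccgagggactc
The gap between the boxes in capitals was 20 to 23 bases in these 6 promoters, and the left box began 41 to 104 bases before the start. The windows of H2-Eb1, H2-DMb1 and H2-D1 hold 2 such pairs each, with left boxes that overlap and the same right box, and the one farther from the start is in capitals. Class II genes with the pair were H2-Aa, H2-Eb1, H2-Eb2, H2-DMb1, H2-DMb2 and H2-Ob, and class I genes with it were H2-K1, H2-D1, H2-Q4 and H2-M3. These matches are a description of letters, and levels in these mice range among the genes with the pair over the whole scale, with H2-Aa among the highest and H2-Eb2 near the floor.

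The classical class I heavy chains H2-K1 and H2-D1 were by far the most abundant class I transcripts. H2-K1 (chr17:33996012-34000333, mm10 in the deposited coordinates, start counted from 1), which presents peptides to CD8+ T cells, stood at 204, 182 and 152 FPKM in pacing 1, 2 and 3, against 182, 113 and 143 in sham 1, 2 and 3. Sham 2 was the lowest and pacing 1 the highest mouse, and the groups overlapped. Its mean level was 179 ± 25.8 in paced and 146 ± 34.6 in sham ventricles (SD over 3 mice each; log2 fold change 0.31, SE 0.17, limma adjusted p = 0.655). H2-D1 (chr17:35263094-35267497), the second classical heavy chain, stood at 207, 186 and 175 FPKM in the paced mice and at 182, 124 and 165 in the sham mice. The order of the mice was that of H2-K1, with sham 2 again lowest and an overlap through sham 1. Means were 189 ± 16.2 in paced and 157 ± 30.0 in sham mice (log2 fold change 0.28, SE 0.14, limma adjusted p = 0.628). Without sham 2 the log2 fold changes were 0.14 for H2-K1 and 0.12 for H2-D1. The ratio of H2-K1 to H2-D1 ranged from 0.870 to 0.984 in paced mice and from 0.866 to 0.997 in sham mice.

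**Figure D1:**
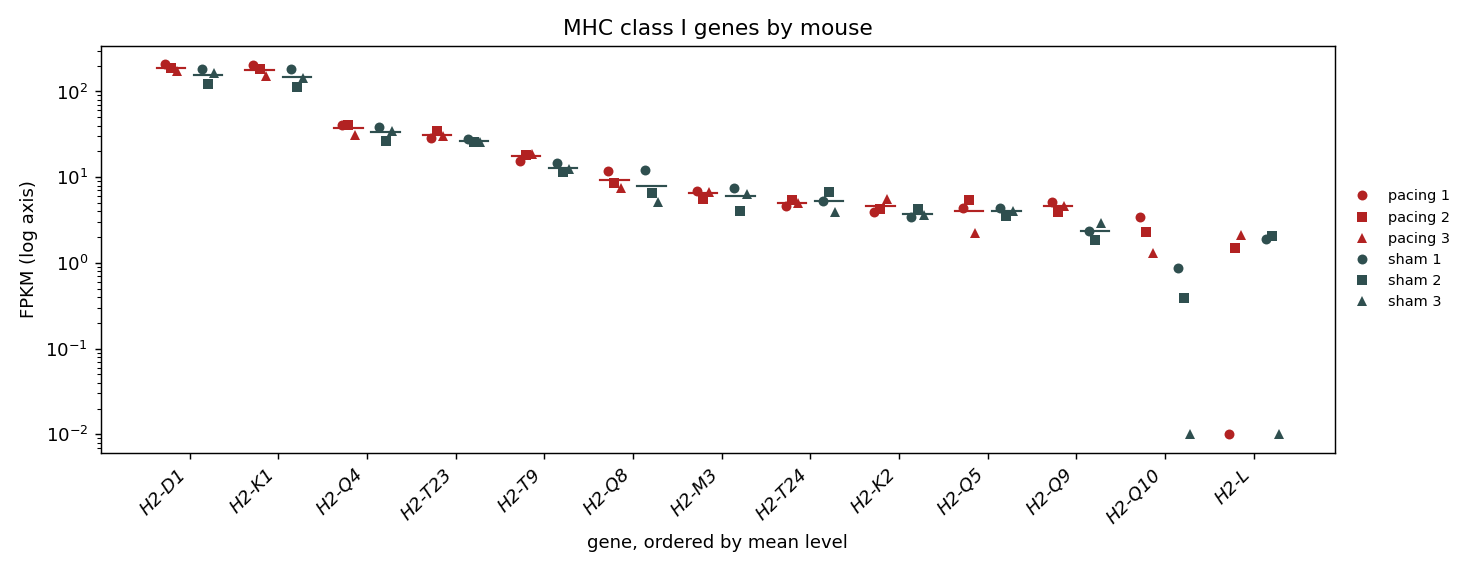
FPKM on a log axis of the 13 tested class I genes, each point a mouse (pacing left of sham for each gene) and each line a group mean, drawn where no mouse is listed at 0.01. H2-D1 and H2-K1 sit above 100 in all mice, and H2-Q9, H2-T9, H2-T23 and H2-Q10 show no overlap between the groups.

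H2-L shares the deposited coordinates of H2-D1, and its values of 0.01, 1.48 and 2.11 in pacing 1, 2 and 3, against 1.91, 2.06 and 0.01 in sham 1, 2 and 3, show no difference by group. C57BL/6 mice carry the b haplotype, which is known to lack the L gene, so reads assigned to this row cannot be told apart from reads of H2-D1.

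H2-Q10 had the largest fold change of the set. It encodes a class I molecule that is secreted and is known in the mouse mainly from liver. H2-Q10 (chr17:35470089-35474563) stood at 3.41, 2.27 and 1.29 FPKM in pacing 1, 2 and 3, against 0.882, 0.388 and 0.01 in sham 1, 2 and 3. Every paced mouse lay above every sham mouse. The summed fat markers given above had the same order over all 6 mice, highest in pacing 1 and lowest in sham 3, while lung markers were low in pacing 1, and the part of either tissue in this gene was not tested. The log2 fold change was 1.22 (SE 0.29, limma adjusted p = 0.389), and leaving out 1 mouse at a time gave 0.99 to 1.46. At this low level the pseudocount sets the size, with a log2 fold change of 1.65 at a pseudocount of 0.5 and 2.59 at 0.1. The authors' deposited table gave 2.31 for the pacing group and 0.420 for the sham group with a q-value of 0.0491. It was the only one of the 51 genes that the authors' deposited table called at a q-value under 0.05 (background: 1.23% higher, 0.152% lower of 24341 rows). As this q-value was the lowest of the set, 0 were called at a q-value under 0.01. The share of all rows at that stricter threshold is not given here. At these levels the value rests on few fragments. Of 4178 stretches of 151 bases in its longest annotated transcript, 160 also stand in the transcript of another gene, 146 of them in H2-Q7, so part of its reads could be assigned to either.

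H2-Q9, of the Qa-2 group of class I genes, stood at 5.15, 3.92 and 4.66 FPKM in pacing 1, 2 and 3, against 2.38, 1.87 and 2.90 in sham 1, 2 and 3. The groups did not overlap, and the lowest paced mouse was about 1 FPKM above the highest sham mouse. Means were 4.58 ± 0.621 in paced and 2.39 ± 0.512 in sham mice (log2 fold change 0.73, SE 0.15, limma adjusted p = 0.306). H2-T9 stood at 15.5, 18.3 and 18.8 FPKM in the paced mice, against 14.8, 11.6 and 12.4 in the sham mice. Here too the groups did not overlap, though sham 1 came close to pacing 1 (log2 fold change 0.41, SE 0.11, limma adjusted p = 0.412). Both rows are uncertain, because the authors' deposited table also holds merged rows that the per-mouse table does not. Neither name is in the annotation used to compare stretches of 151 bases, so that check could not be made for them. The merged row of H2-Q7 and H2-Q9 stood at 7.48 in the pacing group and 6.74 in the sham group in the authors' deposited table (q-value 0.998). The merged row of H2-T22 and H2-T9 stood at 6.51 in the pacing group and 7.79 in the sham group in the authors' deposited table (q-value 0.992). Added to the single rows, the H2-Q9 locus came to 12.0 in pacing and 9.11 in sham and the H2-T9 locus to 23.9 in pacing and 20.6 in sham, from the authors' deposited table. For both of these loci the gap between the groups was therefore smaller per locus than per single row, as a ratio.

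H2-T23 encodes Qa-1, which shows leader peptides of other class I chains to the NKG2A receptor of natural killer cells. It stood at 28.8, 35.0 and 29.9 FPKM in pacing 1, 2 and 3, against 27.8, 25.8 and 25.6 in sham 1, 2 and 3. The groups did not overlap, but pacing 1 and sham 1 lay within about 1 FPKM of each other. The log2 fold change was 0.23 (SE 0.09, limma adjusted p = 0.542). Its deposited coordinates are those of H2-T24 as well, so the split between these rows is uncertain. H2-T24 itself stood at 4.66, 5.38 and 4.96 FPKM in paced mice and 5.27, 6.66 and 3.95 in sham mice (log2 fold change -0.05), with the paced mice inside the range of the sham mice.

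The other class I genes gave overlapping groups. H2-Q4 stood at 40.6, 41.2 and 31.3 FPKM in pacing 1, 2 and 3, against 38.7, 26.4 and 34.9 in sham 1, 2 and 3 (log2 fold change 0.18). H2-Q8 stood at 11.9, 8.52 and 7.47 in the paced mice and 12.1, 6.60 and 5.10 in the sham mice (log2 fold change 0.26). Sham 1 was close to pacing 1 in both genes. A merged row of H2-Q6 and H2-Q8 in the authors' deposited table stood at 2.67 in the pacing group and 0.126 in the sham group (q-value 0.353), and with it the H2-Q8 locus came to 11.9 in pacing and 8.02 in sham. The single H2-Q8 row there stood at 9.22 in pacing and 7.89 in sham. Unlike for H2-Q9 and H2-T9, the gap was thus larger per locus than per single row, as a ratio. H2-M3, which presents peptides with a formylated methionine such as those of bacteria and mitochondria, stood at 6.98, 5.64 and 6.78 in the paced mice and 7.53, 4.03 and 6.33 in the sham mice (log2 fold change 0.13). The pseudogene H2-K2 had 3.96, 4.24 and 5.62 in the paced mice and 3.43, 4.27 and 3.58 in the sham mice (log2 fold change 0.23). H2-Q5, a pseudogene in some strains, had 4.39, 5.47 and 2.21 in the paced mice and 4.42, 3.50 and 4.08 in the sham mice (log2 fold change -0.05). H2-T10, not tested, stood between 0.766 and 1.04 in paced mice and between 0.808 and 0.993 in sham mice. None of these genes separated the groups.

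Among class II genes, 6 of 7 tested had a positive log2 fold change, H2-DMb2 being the exception, and sham 2 was the lowest mouse for 6 of 7. H2-Aa, the alpha chain of the I-A molecule, stood at 121, 95.0 and 109 FPKM in pacing 1, 2 and 3, against 100.4, 72.9 and 90.4 in sham 1, 2 and 3. Pacing 1 and pacing 3 lay above all sham mice and pacing 2 below sham 1. Means were 108 ± 12.9 in paced and 87.9 ± 13.9 in sham mice (log2 fold change 0.30, SE 0.13, limma adjusted p = 0.565). H2-Ab1, the beta chain of I-A, stood at 76.9, 69.9 and 66.4 FPKM in the paced mice, against 71.6, 36.7 and 55.7 in the sham mice. The paced mice lay close together, and the sham mice spread over nearly a doubling, with sham 2 lowest. Means were 71.1 ± 5.37 in paced and 54.6 ± 17.5 in sham mice (log2 fold change 0.42, SE 0.21, limma adjusted p = 0.619). H2-Eb1, the beta chain of I-E, stood at 59.6, 46.5 and 42.7 FPKM in the paced mice, against 56.2, 28.4 and 46.6 in the sham mice. These groups overlapped widely, and without sham 2 the log2 fold change was -0.06, against 0.22 (SE 0.23, limma adjusted p = 0.824) with it.

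The partner of H2-Eb1, the I-E alpha chain row H2-Ea-ps, was listed at 0.01 in every mouse. C57BL/6 mice are known to make no I-E alpha chain, because the promoter of that gene is deleted in their haplotype. Cd74, the invariant chain that escorts new class II molecules, stood at 229, 191 and 196 FPKM in pacing 1, 2 and 3, against 209.9, 117 and 174 in sham 1, 2 and 3. Sham 1 lay inside the paced range and sham 2 was lowest. Its mean level was 205 ± 20.9 in paced and 167 ± 46.7 in sham mice (log2 fold change 0.33, SE 0.19, limma adjusted p = 0.673). Cd74 followed the class II chains closely, at 0.891, 0.903 and 0.899 of the summed H2-Aa, H2-Ab1 and H2-Eb1 in the paced mice and 0.920, 0.851 and 0.904 in the sham mice.

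**Figure D2:**
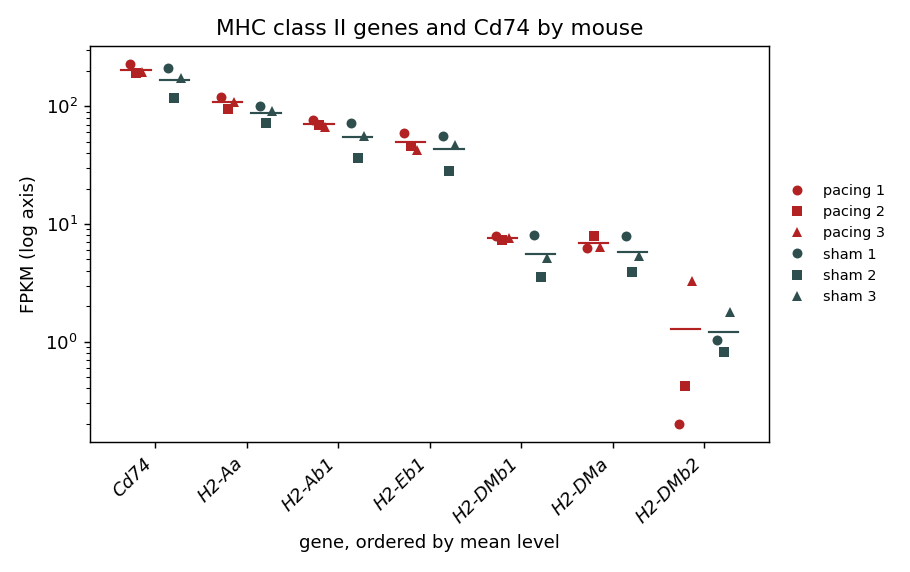
FPKM on a log axis of the 7 tested class II genes, each point a mouse (pacing left of sham) and each line a group mean. Sham 2 sits lowest for all but H2-DMb2, for which pacing 1, at 0.200, is lowest and pacing 3, at 3.26, highest.

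H2-DMa and H2-DMb1 form the H2-DM molecule, which helps peptides load onto class II. H2-DMb1 stood at 7.97, 7.28 and 7.63 FPKM in pacing 1, 2 and 3, against 8.13, 3.52 and 5.13 in sham 1, 2 and 3. Sham 1 was the highest mouse and sham 2 the lowest, with the paced mice close together (log2 fold change 0.45, SE 0.22, limma adjusted p = 0.619). H2-DMa stood at 6.30, 7.87 and 6.40 in the paced mice and 7.98, 3.91 and 5.34 in the sham mice (log2 fold change 0.26). H2-DMb2, the second beta chain gene, had 0.200, 0.417 and 3.26 FPKM in pacing 1, 2 and 3, against 1.03, 0.819 and 1.80 in sham 1, 2 and 3 (log2 fold change -0.17, SE 0.44). Pacing 3 was the highest and pacing 1 the lowest, so the paced mice bracketed the sham mice, and the mean FPKM of 1.29 in paced and 1.22 in sham mice differs in sign from the fold change. H2-DMb1 and H2-DMb2 share 71 stretches of 151 bases, 5.66% of those of H2-DMb1 and 5.33% of those of H2-DMb2, so a small part of their reads cannot be assigned by sequence alone.

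H2-Oa and H2-Ob form H2-O, an inhibitor of H2-DM that is best known from B cells. H2-Ob stood at 0.642, 0.721 and 1.43 FPKM in pacing 1, 2 and 3, against 0.767, 0.607 and 0.318 in sham 1, 2 and 3. H2-Oa stood at 0.140, 0.293 and 0.763 in the paced mice and 0.290, 0.287 and 0.361 in the sham mice. For both, pacing 3 was the highest mouse. The 4 B cell markers Cd79a, Cd79b, Ms4a1 and Pax5 were also highest in pacing 3, with a summed level of 2.26, 2.71 and 10.2 FPKM in pacing 1, 2 and 3 and 4.83, 2.33 and 3.06 in sham 1, 2 and 3. Pax5 was at 0.01 in pacing 2 and sham 2. Summed lung markers were highest in pacing 3 as well, at 1718 FPKM, against 313 in pacing 2. The part of B cells or of lung tissue in the levels of H2-DMb2, H2-Oa and H2-Ob was not tested.

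The light chain, peptide supply and regulator genes had a median log2 fold change of 0.04, with single values from -0.15 to 0.24. B2m, the light chain of every class I molecule, was the most abundant gene of the set at 587, 478 and 426 FPKM in pacing 1, 2 and 3, against 536, 398 and 461 in sham 1, 2 and 3. The groups overlapped, and pacing 1 was highest and sham 2 lowest. Means were 497 ± 82.5 in paced and 465 ± 69.2 in sham mice (log2 fold change 0.09, limma adjusted p = 0.888). B2m shares its deposited coordinates with Trim69 and Patl2. The ratio of B2m to summed H2-K1 and H2-D1 was 1.43, 1.30 and 1.30 in the paced mice and from 1.47 to 1.68 in the sham mice. Every paced mouse thus lay below every sham mouse (background for single genes: 6.24% higher, 6.97% lower). This ratio was looked at after the single values were seen, and none of the other ratios given here separated the groups.

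Tapbp, or tapasin, which holds empty class I at the peptide transporter, stood at 42.4, 39.1 and 36.8 FPKM in pacing 1, 2 and 3, against 38.3, 29.7 and 32.5 in sham 1, 2 and 3. Only sham 1 lay within the paced range (log2 fold change 0.24, SE 0.11, limma adjusted p = 0.577). Tap1 and Tap2 make up that transporter, which carries peptides into the endoplasmic reticulum. Tap1 stood at 5.78, 6.91 and 6.17 in the paced mice and 6.61, 4.92 and 6.02 in the sham mice (log2 fold change 0.09). Tap2 stood at 15.2, 15.8 and 15.3 in the paced mice and 16.5, 13.0 and 15.8 in the sham mice (log2 fold change 0.04). Erap1, an aminopeptidase that trims peptides in the same compartment, was the lowest by fold among the processing genes, at 11.1, 10.7 and 11.6 in the paced mice and 11.3, 13.9 and 12.3 in the sham mice (log2 fold change -0.15, limma adjusted p = 0.695).

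The immunoproteasome subunits Psmb8, Psmb9 and Psmb10 take the places of the standard subunits Psmb5, Psmb6 and Psmb7 and change which peptides are cut. Psmb8 stood at 27.4, 24.6 and 22.2 FPKM in pacing 1, 2 and 3, against 28.0, 16.6 and 23.8 in sham 1, 2 and 3 (log2 fold change 0.14). Psmb9 stood at 14.5, 13.1 and 11.9 in the paced mice and 14.4, 11.1 and 17.9 in the sham mice (log2 fold change -0.10). Psmb10 stood at 41.8, 38.8 and 40.8 in the paced mice and 38.0, 38.6 and 43.0 in the sham mice (log2 fold change 0.02). The groups overlapped for all 3. Set against its standard partner, Psmb8 came to 0.172 to 0.183 of Psmb5 in paced and 0.116 to 0.204 in sham mice. Psmb9 came to 0.069 to 0.083 of Psmb6 in paced and 0.065 to 0.097 in sham mice, and Psmb10 to 0.144 to 0.152 of Psmb7 in paced and 0.131 to 0.144 in sham mice.

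The 2 regulators were low. Nlrc5, the class I transactivator, stood at 1.70, 1.66 and 1.24 FPKM in pacing 1, 2 and 3, against 1.63, 1.36 and 1.48 in sham 1, 2 and 3 (log2 fold change 0.02). Ciita, the class II transactivator, stood at 0.587, 0.490 and 0.706 in the paced mice and 0.717, 0.329 and 0.515 in the sham mice and was not tested. Neither separated the groups. H2-Ke6, the steroid dehydrogenase, stood at 84.1, 83.3 and 78.1 in the paced mice and 66.3, 87.6 and 82.2 in the sham mice, without the low value in sham 2 (log2 fold change 0.07). Of its stretches of 151 bases 87.1% also stand in the transcript Gm20427, so this level is uncertain.

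**Figure D3:**
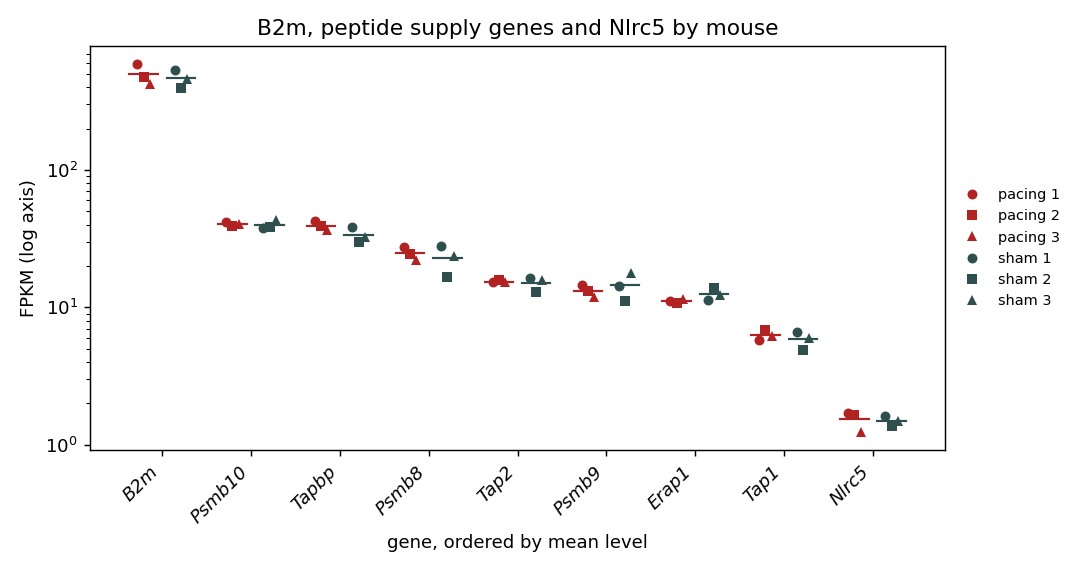
FPKM on a log axis of B2m, the 7 peptide supply genes and the regulator Nlrc5, each point a mouse (pacing left of sham) and each line a group mean. B2m sits between 398 and 587 in all mice, and no gene separates the groups.

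**Figure D4:**
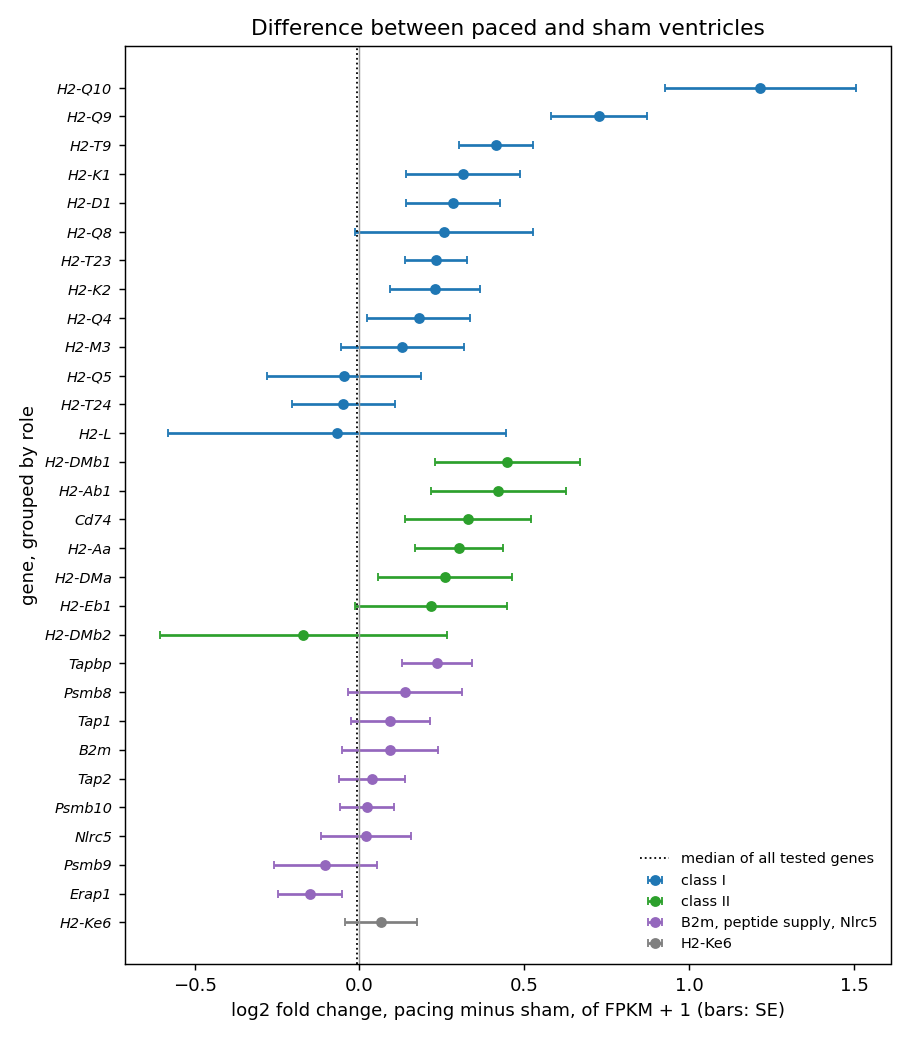
Log2 fold change of FPKM + 1, pacing minus sham, with its standard error for the 30 tested genes, grouped by role; the dotted line is the median of all tested genes. Class II and classical class I genes lie mostly between 0.2 and 0.5, and the peptide supply genes around 0.

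The size of the class II difference depended on which sham mouse was left out. Sham 2 was the lowest of the 6 mice for 18 of the 30 tested genes, or 60.0% (background: 20.7%), with 6 of 7 class II, 6 of 13 class I and 6 of 9 light chain, peptide supply and regulator genes. For such genes leaving out sham 2 has to lower the fold change. All paced mice lay above both sham 2 and sham 3 for 13 of 30 genes (background: 15.4%). Without sham 2 the median log2 fold change was 0.18 for class I, 0.10 for class II and -0.02 for the light chain, peptide supply and regulator genes, and 19 of 30 genes were positive. Without sham 1 the class II median was 0.49, and 13 of the 30 genes had an unadjusted p under 0.05 in limma, all higher in paced mice (background in that fit: 8.38% higher, 6.11% lower). Without sham 2 the log2 fold change was 0.17 for both H2-Ab1 and H2-Aa, 0.10 for Cd74, 0.20 for H2-DMb1 and 0.05 for H2-DMa. With pacing 1 as the only paced mouse, that is without the 2 mice with lung RNA, the medians were 0.25 for class I, 0.49 for class II and 0.07 for the third set, and the lone mouse was assumed to vary like the sham mice. In that fit B2m stood at 0.35, H2-Q8 at 0.60 and H2-Q10 at 1.67, and H2-T9 was smaller at 0.25 and H2-T23 at 0.12. In the same fit H2-DMb2 stood at -0.86 and H2-L at -1.04. Pacing 1 had the highest summed fat (131 FPKM) and macrophage markers (774 FPKM) of the 6 mice. Summed fat markers were higher in every paced than in every sham mouse, so leaving out mice does not remove that difference, and its part was not tested.

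Levels of both classes varied together across mice. Summed class I FPKM was 537, 500.2 and 444 in pacing 1, 2 and 3, against 485, 331 and 408 in sham 1, 2 and 3, or 494 ± 47.1 in paced and 408 ± 77.1 in sham ventricles. Summed class II FPKM was 502, 419 and 433 in the paced mice, against 456, 265 and 379.9 in the sham mice, or 451 ± 44.4 in paced and 367 ± 96.6 in sham ventricles. In both sums sham 1 lay within the paced range and sham 2 was lowest. Summed class II chains made up 0.627, 0.575 and 0.666 of summed H2-K1 and H2-D1 in pacing 1, 2 and 3, and 0.627, 0.584 and 0.627 in sham 1, 2 and 3, so the 2 groups overlapped fully in the balance of the classes.

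Summed macrophage markers were lowest and highest in the same mice as the MHC sums. Sham 2 was the lowest mouse for 8 of the 13 single markers (background: 20.7%). Lyz2, the marker of the highest level, was highest in pacing 3, and Cd68 and Cx3cr1 were highest in sham 1. The other markers were highest in pacing 1. Of 13 macrophage and monocyte markers 0 were called in limma (background: 0%). At an unadjusted p under 0.05, 1 was higher and 0 were lower (background: 5.17% higher, 3.69% lower). A positive log2 fold change stood in 12 (background: 48.2%), with a median of 0.29, and none was at 0.01 in any mouse. Their summed level was 774, 543 and 605 FPKM in pacing 1, 2 and 3, against 581, 372 and 467 in sham 1, 2 and 3, again lowest in sham 2 and highest in pacing 1. Relative to that sum the class II chains stood at 0.332, 0.389 and 0.360 in the paced mice and at 0.393, 0.371 and 0.412 in the sham mice, so pacing 1 and pacing 3 lay below all sham mice in this ratio and pacing 2 lay within them. Dendritic cell markers (8 genes) summed to 9.33, 10.6 and 9.06 in the paced mice and to 8.77, 7.77 and 7.58 in the sham mice, so the sums did not overlap. Among them Cd209a alone, below the filter, did not overlap either, at 0.845 to 1.28 in paced and 0.0962 to 0.484 in sham mice. Over all tested genes, 6.24% showed no overlap with pacing higher. The 3 tested members Zbtb46, Clec9a and Batf3 overlapped. Zbtb46, the largest term of the sum, had a lower mean in paced mice (4.28 against 4.61), as did Xcr1 (0.234 against 0.273). The other members had higher means in paced mice. T and natural killer cell markers (11 genes) summed to 4.54, 3.64 and 7.46 in the paced mice and to 8.06, 3.36 and 2.42 in the sham mice. Endothelial markers (7 genes), from cells that also carry class I, summed to 340.2, 387 and 371 in the paced mice. In the sham mice they summed to 439, 392 and 397, so these sums did not overlap either, here with the paced mice lower. Of the single endothelial markers 2 showed no overlap with pacing lower (background: 6.97%). All 7 had a negative log2 fold change (background: 48.2% positive), and 2 were lower at an unadjusted p under 0.05 in limma (background: 3.69%). The part of any of these cells in the MHC levels was not tested.

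**Figure D5:**
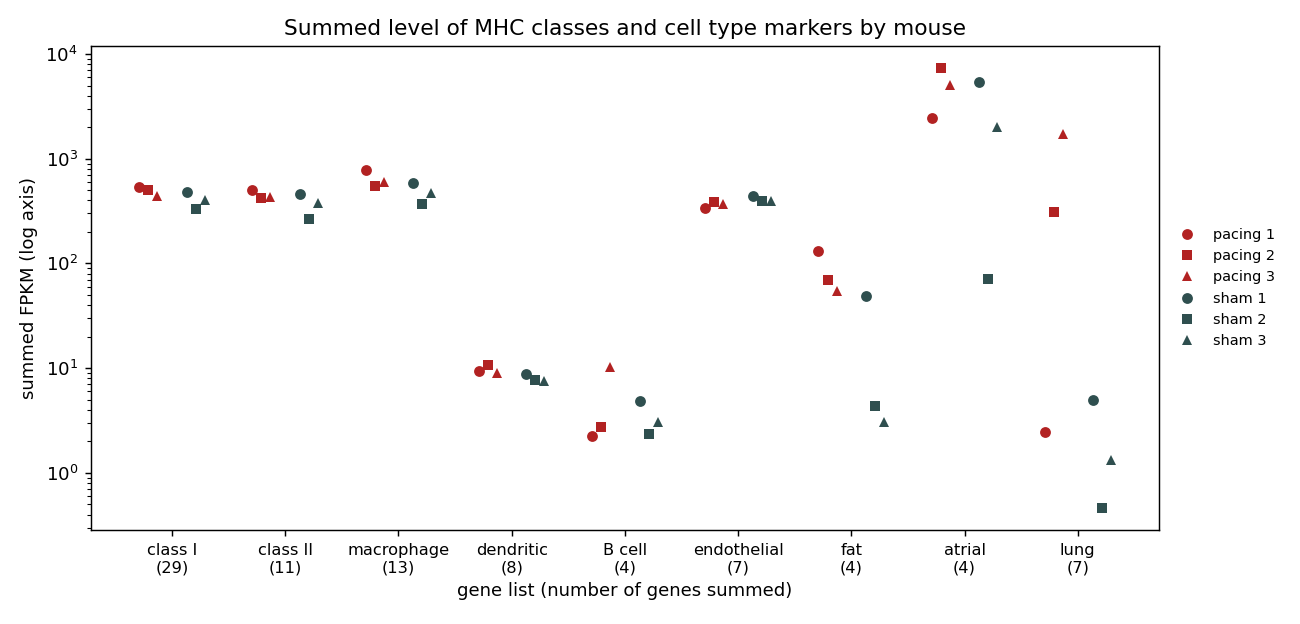
Summed FPKM on a log axis of the MHC classes and of cell type marker lists, each point a mouse (pacing left of sham). Class I, class II and macrophage sums are lowest in sham 2 and highest in pacing 1, while the lung sum reaches 313 and 1718 in pacing 2 and pacing 3.

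Other genes of the pathway were read from 3 lists that hold no gene of the set. Of 13 peptide loading and class I-like genes, all tested, 6 had a positive and 7 a negative fold change and 0 were called, with 2 higher and 1 lower at an unadjusted p under 0.05 (background: 48.2% positive, 5.17% higher, 3.69% lower). Cd1d1, a class I-like molecule that presents lipids to natural killer T cells, stood at 8.71, 5.70 and 6.16 FPKM in pacing 1, 2 and 3, against 5.35, 3.40 and 3.71 in sham 1, 2 and 3. Its groups did not overlap (log2 fold change 0.61, SE 0.18, limma adjusted p = 0.447). In this list 2 genes, Cd1d1 and Tapbpl, showed no overlap with pacing higher, and 1, Psme1, with pacing lower (background: 6.24% higher, 6.97% lower). Tapbpl, a peptide editor related to tapasin, had a log2 fold change of 0.42 (limma adjusted p = 0.473), and Psme1, a proteasome activator subunit, one of -0.22 (limma adjusted p = 0.563). The chaperones Canx and Calr had -0.09 and -0.06.

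Of 13 class II processing genes 8 were positive and 5 negative, and 0 were called, with 2 higher at an unadjusted p under 0.05 (background as for the first list). Ifi30, the lysosomal reductase that opens disulfide bonds of antigens, stood at 15.9, 15.05 and 20.5 FPKM in pacing 1, 2 and 3, against 11.3, 10.1 and 9.36 in sham 1, 2 and 3. All paced mice lay above all sham mice (log2 fold change 0.68, SE 0.13, limma adjusted p = 0.287), a larger fold change than that of any class II gene tested. In this list 2 genes, Ifi30 and Rfxap, showed no overlap with pacing higher, and 0 with pacing lower (background: 6.24% higher, 6.97% lower). Ctss, the protease that removes the invariant chain, stood at 38.1, 22.1 and 29.8 in the paced mice and 25.2, 16.5 and 19.8 in the sham mice, with sham 1 inside the paced range (log2 fold change 0.52, limma adjusted p = 0.540). The related proteases Ctsb, Ctsl and Ctsd had log2 fold changes of -0.03, 0.10 and -0.08. Of 9 genes of the interferon gamma arm 7 were tested, of which 5 were positive and 2 negative. At an unadjusted p under 0.05 there were 0 (background as for the first list). Its transcription factor Irf1 had a log2 fold change of -0.01, and Ifng itself was above 0.01 in pacing 1 alone.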

How the data were processed

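Per the labels' protocols, polyA RNA of the ventricles of 6 mice was made into stranded libraries and read as paired ends of 151 bases. Tools named in the submitters' processing notes are FastQC 1.0.0, TopHat2 2.1.0, Bowtie2 2.2.6, Cufflinks and Cuffdiff, with the mm10 build. Their settings and the annotation are not given in the sources used. The authors deposited FPKM values per gene and mouse, with 0.01 as the lowest value, and a comparison table with a group FPKM and a q-value per row, per the file headers. Its fold column was not used. Depth came from low values of 640 genes with 1 exon, with the length shortened by 154 bases, where at least 98.1% of values under 10 fragments were whole within 0.05. Mice are separate animals by the series design.

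FPKM values call for a test on a log scale, so limma 3.58.1 in R 4.3.3 was fitted to log2(FPKM + 1), with a trended prior and no term other than group, for the 11994 genes averaging 1 FPKM or more over the 6 mice. Tests were two-sided, and p-values were adjusted over all these genes (Benjamini-Hochberg). Genes under the filter are given as values, and entered a test in the alternative without a filter alone. The genes, lists and marker lists were chosen with earlier results of these data known, and every gene of the set was named. March1 and March8 of the class II processing list were not found under those names. Some genes of the pathway and marker lists are not reported here and were left out of the counts and sums.

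Other settings tried were a pseudocount of 0.1 or 0.5, a filter at 5 or none, 3 other scalings, eBayes without a trend or robust, a replicate block, and each mouse left out. Pacing 2 and pacing 3 were also left out together. Added after seeing the data was a class I median without 5 rows that share coordinates with another gene or have a merged row (H2-L, H2-T24, H2-Q8, H2-Q9 and H2-T9), and one that also leaves out H2-D1 and H2-T23. Stretches of 151 bases were compared between the longest transcripts of GENCODE M21. H2-L, H2-Q8, H2-Q9 and H2-T9 are not named there and could not be compared.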

Additional observations from a re-analysis of the deposited data

How the results depend on the processing

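No gene of the set passed an adjusted p under 0.05 under any of 17 alternatives in limma (lowest 0.0694, for H2-Q10 without sham 1), and 16 of 30 tested genes kept their sign under all of them. Over all tested genes, 6 were called with no filter, 1 with robust eBayes and 7 with the replicate block, against 0, and leaving out 1 mouse gave 0 to 107 (107 without sham 1, 8 without pacing 1, 1 without pacing 3). Genes of the set with an unadjusted p under 0.05 numbered 4 (background 5.17% higher), against 2 with a filter at 5 (4.66%), 8 after rescaling to the same sum (8.07%) and 8 with the replicate block (4.94%), and 3 to 13 without 1 mouse (13 without sham 1, 8.38%). The class I median was 0 with no filter, where the 16 class I genes under the filter enter, 0.23 without H2-L, H2-T24, H2-Q8, H2-Q9 and H2-T9, 0.20 without all 7 rows that share coordinates or merge, and 0.18 to 0.31 without 1 mouse. Without 1 mouse the class II median was 0.10 to 0.49, and that of the light chain, peptide supply and regulator genes -0.02 to 0.10. The replicate numbers gave no sign of pairing: correlations of same-numbered mice were -0.13, -0.02 and -0.02, and 0 of 3 correlated best with their own number. These correlations use deviations from the mean of 3 mice, which offset each other, so they cannot show that the mice are unpaired. The authors' deposited table called 0 of the set at a q-value under 0.01, where the share of all rows is not given here. The log2 fold changes of 14 genes turned sign somewhere. Rescaling to the same sum gave 0.014 for H2-T24 and 0.012 for H2-Q5, centring gave -0.0021 for Psmb10 and -0.0052 for Nlrc5, and quantile normalization gave -0.055 for Nlrc5. Without pacing 2 and pacing 3, H2-Q5 stood at 0.11, Tap1 at -0.0070 and Psmb9 at 0.029. Without 1 mouse at a time, the log2 fold change ranged from -0.058 to 0.42 for H2-Eb1, -0.21 to 0.10 for H2-T24, -0.052 to 0.15 for H2-Ke6, -0.59 to 0.42 for H2-L, -0.087 to 0.29 for H2-M3, -0.26 to 0.25 for H2-Q5 and -0.74 to 0.17 for H2-DMb2. For the others that turned it ranged from -0.033 to 0.20 for B2m, -0.0073 to 0.17 for Tap1, -0.060 to 0.10 for Tap2, -0.065 to 0.30 for Psmb8, -0.27 to 0.052 for Psmb9, -0.0094 to 0.077 for Psmb10 and -0.029 to 0.10 for Nlrc5. The cause was not tested. Depth limits the precision of low genes such as H2-Q10.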
